A study of Homo sapiens with 4 samples.

Results

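The germ-layer transcription factors examined here are 52 genes of the SOX, PAX, TBX, GATA and FOXA families and of other families, among the 62218 genes that the annotation matched to the count files. They were taken by gene symbol from a list of factors that mark or specify ectoderm (14 genes), mesoderm (23 genes) and endoderm (10 genes), with 5 further family members (SOX13, SOX15, SOX30, TBX2 and TBX3) that belong to no single layer. The list itself names no measured value, although it was drawn up with earlier results of these data known. Their expression was compared between 2 libraries of naïve and 2 libraries of primed human embryonic stem cells (hESCs), 4 Nanopore cDNA libraries in all.

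Both states came from the wild-type line H1, an established hESC line, and the naïve cells were derived from the primed ones. Primed hESCs were grown in mTeSR on Matrigel in normal oxygen. Naïve hESCs were grown in FINE medium, which holds dasatinib, AZD5438, SB590885, PD0325901, Y-27632, LIF, activin A and bFGF, in a low-oxygen incubator. They stood on reduced growth factor Matrigel. Medium, matrix and oxygen therefore differ with the state, and their parts cannot be told apart. The replicates of a state are not said to be separate cultures, so the p-values measure the spread between these libraries, which may be technical. Because the cells were measured in bulk, fewer cells that express a gene and less of its RNA per cell cannot be told apart either.

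The total count of a library lay between 129276054 and 161548901, and between 23542380 and 30978794 when each gene was represented by 1 transcript. Each value below is the number of alignments over the whole span of a gene's most counted transcript, introns included and strand ignored, and CPM is that number scaled by library size and by TMM, edgeR's trimmed mean of M-values. A library without a count of a gene may still have held up to 3, which is 0.0978 to 0.13 CPM here, and the intervals given for ratios and shares cover counting error only. The labels were checked against marker genes. All 8 naïve markers were lower and all 6 primed markers higher in primed hESCs, with summed levels of 1227 and 1042 CPM against 76.7 and 78.3 CPM for the former, although KLF17 differed by only -0.41 on the log2 scale and was not called with library size. Of 9 trophoblast markers, 8 were lower in primed hESCs and KRT7 was not called. Their summed level was 2080 and 2409 CPM in the naïve libraries and 5.63 and 4.92 CPM in the primed ones, most of it from CGA, with 35747 and 47550 naïve counts against 0 and 1. All 5 amnion markers were lower in primed hESCs too (24 to 25.6 CPM against 4.92 to 6.38 CPM in sum), of which GABRP was not called with library size. Of 8 hypoblast markers, 4 were higher and 2 lower. The naïve libraries thus hold trophoblast marker RNA at levels far above the primed ones, and its part in the members that were higher in naïve hESCs was not tested.

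SOX proteins bind DNA through an HMG box, PAX proteins through a paired domain and TBX proteins through a T-box, and each family hands different members to different tissues of the embryo. GATA factors and FOXA factors are zinc finger and forkhead proteins that open chromatin early in the endoderm. Primed hESCs resemble the epiblast around implantation, which is close to gastrulation, whereas naïve hESCs resemble the epiblast before implantation. Most of these factors are known to be low in pluripotent cells and to rise upon differentiation.

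The sequences before the start of a few members are shown as examples of members that were higher in primed and in naïve hESCs. They are the 250 bases upstream of the RefSeq start (GRCh38.p14), written from 5′ to 3′ on the strand of the gene. Capitals mark the TATA box motif (TATAAA), the CCAAT motif and the GC box motif (GGGCGG), each searched on both strands. SOX3, SOX12 and SOX5 were higher in primed hESCs, with upstream stretches at chrX:140505070-140505319 (minus strand), chr20:325302-325551 (plus strand) and chr12:24562492-24562741 (minus strand).
SOX3: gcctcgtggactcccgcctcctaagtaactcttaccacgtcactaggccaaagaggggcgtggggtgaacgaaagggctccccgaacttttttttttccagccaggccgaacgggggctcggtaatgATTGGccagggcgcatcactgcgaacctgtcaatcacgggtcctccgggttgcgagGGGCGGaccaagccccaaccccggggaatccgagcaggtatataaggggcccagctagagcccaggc
SOX12: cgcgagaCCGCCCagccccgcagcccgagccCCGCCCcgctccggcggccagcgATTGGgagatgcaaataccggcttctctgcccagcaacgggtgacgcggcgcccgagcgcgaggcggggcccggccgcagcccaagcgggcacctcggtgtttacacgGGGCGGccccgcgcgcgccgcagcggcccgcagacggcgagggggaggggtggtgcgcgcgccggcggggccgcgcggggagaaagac
SOX5: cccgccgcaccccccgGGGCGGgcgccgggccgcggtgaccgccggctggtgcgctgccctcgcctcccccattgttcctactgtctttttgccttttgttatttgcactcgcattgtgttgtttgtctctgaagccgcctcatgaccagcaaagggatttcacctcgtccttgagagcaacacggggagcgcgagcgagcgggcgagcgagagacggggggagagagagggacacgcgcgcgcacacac
HNF4A, PAX8 and GATA6 were higher in naïve hESCs, although the counts do not tell PAX8 from PAX8-AS1, an antisense RNA inside its span. HNF4A has 2 RefSeq starts on the plus strand, an upstream start after chr20:44355449-44355698 and a downstream start after chr20:44400989-44401238, the PAX8 stretch is chr2:113278922-113279171 (minus strand), and that of GATA6 is chr18:22169339-22169588 (plus strand).
HNF4A upstream start: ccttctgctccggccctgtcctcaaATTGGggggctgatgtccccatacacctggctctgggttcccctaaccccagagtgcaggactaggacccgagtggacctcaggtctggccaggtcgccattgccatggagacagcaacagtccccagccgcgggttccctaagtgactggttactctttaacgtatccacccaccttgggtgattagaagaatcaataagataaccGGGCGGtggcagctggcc
HNF4A downstream start: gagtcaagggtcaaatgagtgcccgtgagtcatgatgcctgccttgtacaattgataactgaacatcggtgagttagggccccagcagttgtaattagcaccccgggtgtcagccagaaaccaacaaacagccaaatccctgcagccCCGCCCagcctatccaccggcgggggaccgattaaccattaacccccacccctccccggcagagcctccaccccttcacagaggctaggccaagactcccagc
PAX8: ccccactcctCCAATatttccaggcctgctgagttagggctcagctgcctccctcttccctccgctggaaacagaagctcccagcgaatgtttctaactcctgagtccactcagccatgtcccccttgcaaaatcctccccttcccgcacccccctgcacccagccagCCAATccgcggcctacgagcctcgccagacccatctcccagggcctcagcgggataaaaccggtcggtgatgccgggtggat
GATA6: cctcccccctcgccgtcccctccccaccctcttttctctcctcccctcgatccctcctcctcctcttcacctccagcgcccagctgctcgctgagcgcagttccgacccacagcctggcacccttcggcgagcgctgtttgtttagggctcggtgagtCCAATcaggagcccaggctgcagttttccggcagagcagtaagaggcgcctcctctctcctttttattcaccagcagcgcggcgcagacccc
The SOX12 stretch held 42 CG dinucleotides, a number that 1.38% of 35116 RefSeq promoters reach, and 3 GC box motifs. The SOX3 stretch held 17, which 39% reach, with 1 CCAAT motif and 1 GC box motif, and the SOX5 stretch held 27, which 17.7% reach. Both HNF4A stretches held 8, which 56.3% of promoters reach, and each had 1 GC box motif. PAX8 had 2 CCAAT motifs and no GC box motif, as GATA6 had 1 and none. Of all promoters, 10.7% held the TATA box motif, 32% the CCAAT motif and 42.6% the GC box motif, and the TATA box motif was in none of the 7 stretches shown. RefSeq promoters were matched for 33 of the 52 members, with a median of 15 CG dinucleotides over their 52 stretches against 11 over all promoters.

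Across the 52 members, 13 were called higher in primed hESCs, 9 were called lower, 6 were tested and not called, and 24 had too few counts to be tested. The test was edgeR's quasi-likelihood test, adjusted over the 27632 genes that reached 10 counts in 2 or more libraries, of which 37.4% were called higher and 32.6% lower in primed hESCs. A member that reaches the filter in 1 state alone had to differ to be tested, which holds for 13 members through the primed and 3 through the naïve libraries, so the counts over tested members are an account and not a measure of how often members differ. Without the filter all 52 members entered the fit, and 16 were called higher and 9 lower, against 22.9% and 19.3% of 50139 genes. With library size in place of TMM, 16 members were higher and 7 lower (56.2% and 16.3% of all genes). That scaling raises the median log2 difference of all genes from 0.08 to 0.72, a shift of 0.64, and all differences below are relative to the TMM scale. DESeq2 called 9 higher and 7 lower, against 29.1% and 29.6% of all genes.

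**Figure D1:**
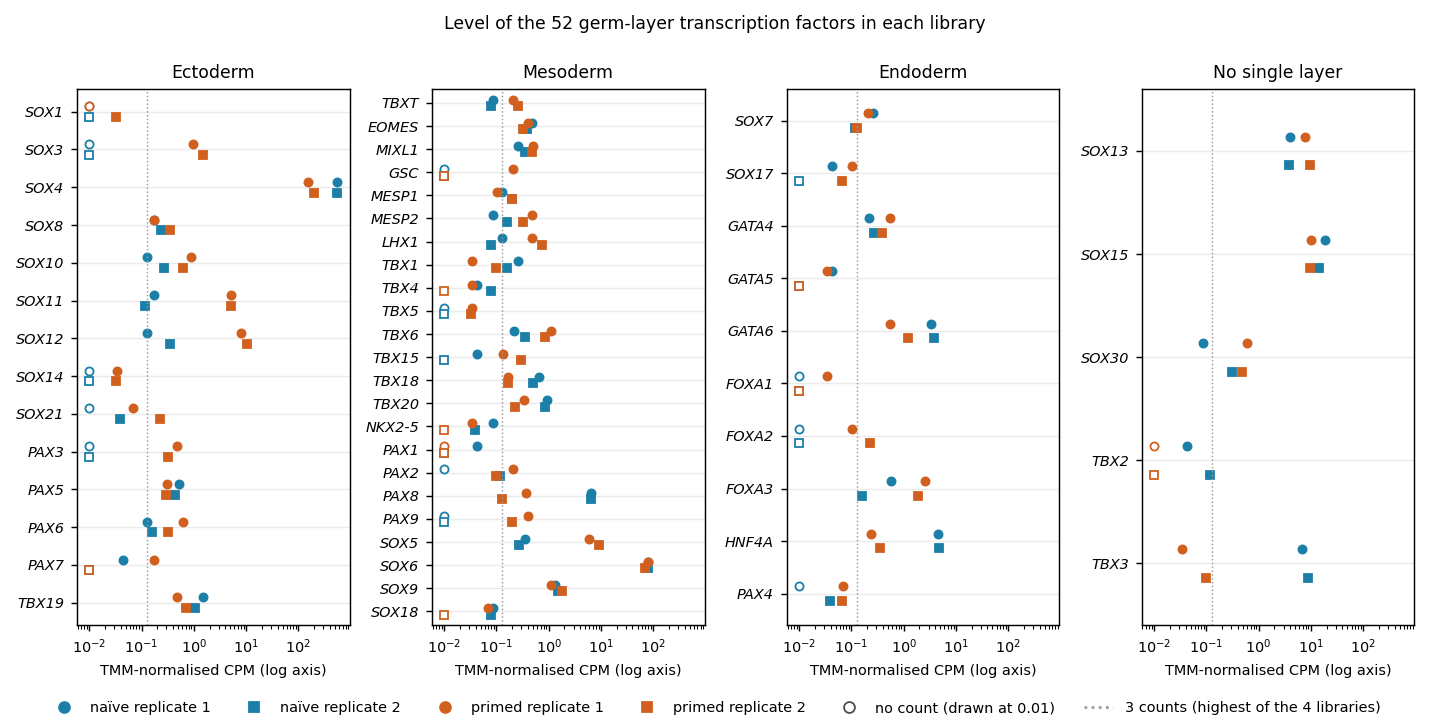
Level of each of the 52 members in each of the 4 libraries, in TMM-normalised CPM on a log axis, with members in rows and layers in panels. Open symbols at the left edge are libraries with no count, and the dotted line is the level of 3 counts. SOX4 and SOX6 lie far to the right of the other members, while most mesoderm members lie near the dotted line in both states.

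By layer, 6 of the 14 ectoderm members were higher in primed hESCs, 2 lower, 1 not called and 5 untested. Of the 23 mesoderm members, 4 were higher, 3 lower, 4 not called and 12 untested. Of the 10 endoderm members, 1 was higher, 2 lower, 1 not called and 6 untested. The median log2 difference of the tested members was 1.84 for ectoderm, 0.06 for mesoderm and -0.56 for endoderm, beside 0.08 over all genes tested. These medians depend on the filter. Through the primed libraries alone it was reached by 6 of the 9 tested ectoderm, 5 of the 11 mesoderm and 1 of the 4 endoderm members. Those members had to be higher in primed hESCs to be tested, so the medians do not measure a layer. Whether the layers differ from each other was not tested. Of the 52 spans, 26 meet the span of another gene, whose reads cannot be told apart from the member's where they overlap. By family, 7 of the 18 SOX members were higher and 2 lower, 2 of the 9 PAX members higher and 1 lower, and 1 of the 11 TBX members higher and 4 lower. Of these families, 7 SOX, 5 PAX and 6 TBX members were untested. Beside these counts by layer and family, 37.4% of all genes tested were higher and 32.6% lower. Those shares leave untested genes out, whereas the counts are given over all members, tested or not.

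**Figure D2:**
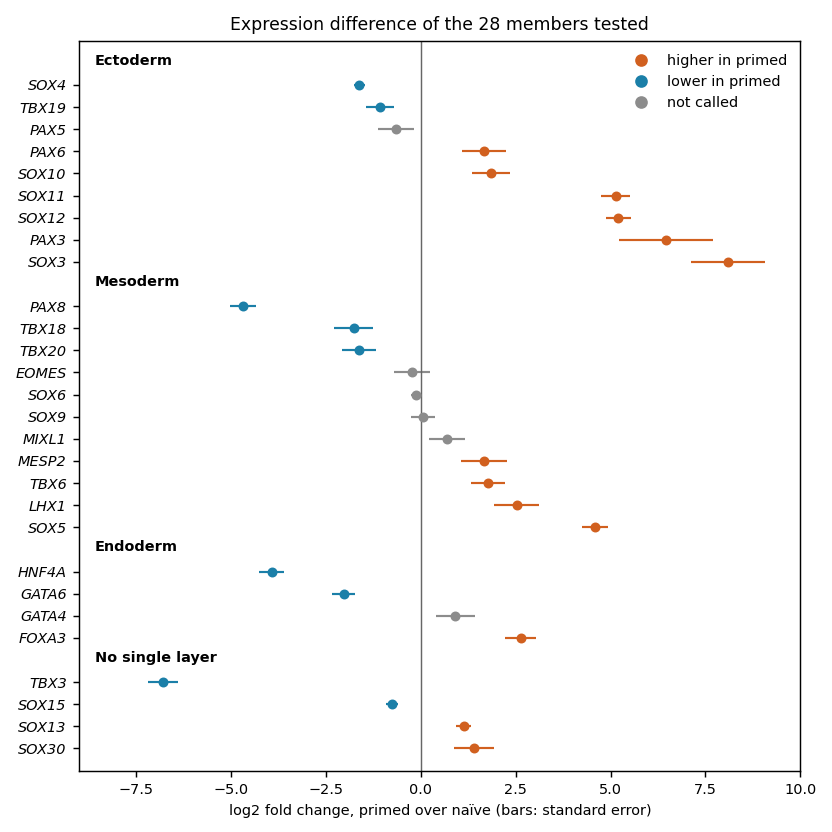
Log2 fold change of primed over naïve hESCs for the 28 members tested (edgeR, TMM), ordered by size within each layer, with bars for the standard error. Of the ectoderm members, PAX6, SOX10, SOX11, SOX12, PAX3 and SOX3 lie to the right, up to SOX3 at 8.09. SOX3 and PAX3 had no naïve count, so their points are not measured sizes. The counts give only lower bounds of 10-fold for SOX3 and 3.24-fold for PAX3. SOX4, TBX19 and PAX5 lie to the left. Over all layers, PAX8, HNF4A and TBX3 lie farthest to the left.

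Among the ectoderm factors, the SoxB1 factor SOX3, which keeps neural progenitors from differentiating, had no naïve count and primed counts of 29 and 46, and its span meets no other gene. Its primed level of 1.24 ± 0.364 CPM (SD, n = 2) was at least 10-fold higher than the level of 3 counts per naïve library (adjusted p = 1.54e-09). The other SoxB factors of the list stayed at or near the limit of detection, SOX1 with 1 count in all, SOX14 with 1 count in each primed library, and SOX21 with 0 and 1 naïve against 2 and 7 primed counts.

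The SoxC factors SOX4, SOX11 and SOX12, which act in neuronal differentiation and in many embryonic progenitors, went in opposite directions. On GRCh38 the counted spans are chr6:21593751-21598619 for SOX4, chr2:5692384-5701385 for SOX11 and chr20:325552-330224 for SOX12, all on the plus strand. SOX11 had naïve counts of 4 and 3 and primed counts of 155 and 159. The states did not overlap, and the primed level of 5.22 ± 0.0565 CPM (SD, n = 2) was 36.3-fold higher (95% counting interval 17.4 to 90.9). Its log2 fold change was 5.14 ± 0.38 (SE), with an adjusted p of 1.16e-15. SOX12 had 3 and 9 naïve counts and 231 and 326 primed counts, a log2 fold change of 5.20 ± 0.33 (SE, adjusted p = 5.82e-18) that was 4.63 without naïve replicate 1 and 6.05 without naïve replicate 2. SOX4 was by far the most counted member in both states and was higher in naïve hESCs, with 12490 and 14122 counts against 4580 and 6149. In CPM this was 547 ± 8.54 (SD, n = 2) in naïve and 178 ± 31.8 (SD, n = 2) in primed hESCs, a 3.07-fold difference (log2 fold change -1.62, adjusted p = 4.46e-13), and it stayed lower with library size (log2 fold change -0.98). All 3 spans meet another gene. SOX12 lies inside the antisense RNA NRSN2-AS1 (62 and 75 naïve, 397 and 465 primed counts), the first 1843 bases of the SOX4 span are shared with the antisense RNA ENSG00000283480, and 57.4% of the SOX11 span is shared with ENSG00000242540, a gene on the same strand. At least 1953 and 2541 naïve and 1220 and 1456 primed alignments on SOX4 missed ENSG00000283480, and at least 64 and 78 primed alignments on SOX11 missed ENSG00000242540.

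Of the neural crest factors, SOX10 had 3 and 7 naïve and 26 and 19 primed counts, with no overlap between states (log2 fold change 1.84 ± 0.50 SE, adjusted p = 0.00128). Without naïve replicate 2 it was 2.43. DESeq2 did not call SOX10 (adjusted p = 0.0519), and its span lies inside that of POLR2F, which had 1258 to 1654 counts in each library. PAX3, also a factor of the dorsal neural tube and of muscle precursors, had 0 naïve counts and 14 and 10 primed counts, a level at least 3.24-fold above 3 counts per naïve library (adjusted p = 1.34e-05). PAX6, the eye and forebrain factor, had 3 and 4 against 18 and 10 counts (log2 fold change 1.66, adjusted p = 0.0105), a call lost with DESeq2 (adjusted p = 0.158) and with the sum over transcripts (adjusted p = 0.14). Its primed alignments lay mostly in the last 3′ stretch of PAX6-243, outside the span of PAX6-208 that covers 87.6% of it. There, 17 of 18 and 6 of 10 primed alignments were counted, against 1 of 3 and 3 of 4 naïve ones, and that stretch meets the gene ELP4. TBX19, the pituitary T-box factor, had 34 and 27 naïve and 14 and 22 primed counts (log2 fold change -1.07, adjusted p = 0.00955) and was not called with library size (-0.43, adjusted p = 0.295), with DESeq2 (adjusted p = 0.0807), without naïve replicate 1 (adjusted p = 0.0702) or without primed replicate 1 (adjusted p = 0.227). PAX5, the B cell and midbrain factor, was not called (12 and 11 against 9 and 9 counts, adjusted p = 0.224). SOX8 and PAX7 had at most 11 and 5 counts in a library.

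Of the mesoderm factors that open gastrulation, none had more than 15 counts in a library. EOMES, the T-box factor of the primitive streak and definitive endoderm, had 11 and 10 naïve against 12 and 10 primed counts and its states overlapped. Its log2 difference of -0.24 (adjusted p = 0.666) turned to 0.39 with library size. MIXL1, a streak homeobox factor, had 6 and 9 against 15 and 15 counts (log2 difference 0.69, adjusted p = 0.201) and was called higher with library size (adjusted p = 0.0147). TBXT (brachyury) had 2 and 2 against 6 and 8 counts, GSC had 6 counts in primed replicate 1 and none elsewhere, and MESP1 had between 3 and 6 counts in each library. MESP2, the somite boundary factor, had 2 and 4 against 14 and 10 counts (log2 fold change 1.66, adjusted p = 0.0147), a call lost with DESeq2 (adjusted p = 0.189) and without naïve replicate 1 (adjusted p = 0.101).

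LHX1 and TBX6 were the other early mesoderm factors called higher in primed hESCs. LHX1, a LIM homeobox factor of the node, the intermediate mesoderm and the kidney, had 3 and 2 naïve and 14 and 23 primed counts (log2 fold change 2.53 ± 0.59 SE, adjusted p = 0.00025). These alignments fall on LHX1-203, a transcript without a coding sequence at the 5′ end of the gene, on chromosome 17 from 36936785 to 36937846. LHX1-DT, the transcript that leaves the same region on the other strand, had 1 and 2 naïve and 31 and 34 primed counts, 17.5-fold higher (95% counting interval 5.73 to 87.1). TBX6, which sends cells to paraxial mesoderm, had 5 and 9 against 33 and 26 counts without overlap and its span meets no other gene (log2 fold change 1.76 ± 0.45 SE, adjusted p = 0.000648).

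Among factors of later mesoderm, SOX5 and PAX8 had the largest differences, in opposite directions. SOX5, a SoxD factor of cartilage and of neurons, had naïve counts of 8 and 7 and primed counts of 172 and 284. The primed libraries were 24.6-fold higher (95% counting interval 14.7 to 44.3), with a log2 fold change of 4.59 ± 0.33 (SE, adjusted p = 3.8e-16). Its span SOX5-218 covers 1028663 bases, from 23533787 to 24562449 on chromosome 12. The span of SOX5-215, which takes 18.9% of it at the 5′ end, held 29.1% and 20.8% of the primed alignments. That of the antisense RNA SOX5-AS1 held 6.98% and 3.87%, so most primed alignments missed both spans. Over SOX5-203, a 5′ transcript that meets no other gene, the log2 fold change was 3.91 (adjusted p = 1.01e-09), an alternative chosen after the data were seen.

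PAX8, the factor of thyroid and kidney (chr2:113215997-113278921, minus strand), had 150 and 166 naïve counts and 11 and 4 primed counts, 26.1-fold higher in naïve hESCs (95% counting interval 15.6 to 47.1), with a log2 fold change of -4.68 ± 0.34 (SE, adjusted p = 3.14e-16). It was -5.43 without primed replicate 1 and -3.94 without primed replicate 2. Nearly all of these alignments touched PAX8-AS1, an antisense RNA whose transcript PAX8-AS1-211 lies wholly inside the span of PAX8-201 and takes 59.9% of its length. It held 143 and 162 of the naïve alignments, or 95.3% (95% Wilson interval 90.7% to 97.7%) and 97.6% (94% to 99.1%), and 11 of 11 and 3 of 4 primed ones. Outside it 7 and 4 naïve and 0 and 1 primed alignments were left, a ratio of 13.6 with a counting interval of 1.98 to 586. As strand was ignored, these counts do not tell PAX8 from PAX8-AS1.

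SOX6, the other SoxD factor of the list, seemed to be the most counted mesoderm member, with 1814 and 2066 naïve and 2293 and 2128 primed counts. It was not called (log2 difference -0.12, adjusted p = 0.477), and with library size it was called higher in primed hESCs (0.52, adjusted p = 0.00157). At least 95.8% and 95.3% of the naïve and 94.6% and 94% of the primed alignments missed the span of SOX6-213, which covers all of SOX6-205 but the 948 bases at its 5′ end, up to 16739591 on chromosome 11. Of that stretch, 945 bases are shared with the start of C11orf58 on the other strand, which had 1942 and 2212 naïve and 2506 and 2325 primed counts. SOX6-213 itself had 76, 98, 123 and 128 counts.

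SOX9, a factor of cartilage, testis and neural crest, had 30 and 38 against 32 and 56 counts and the states overlapped (log2 difference 0.06, adjusted p = 0.866). It turned to -0.09 without naïve replicate 1 and to -0.20 without primed replicate 2. TBX20, a cardiac T-box factor, was higher in naïve hESCs, with 21 and 22 against 10 and 7 counts (log2 fold change -1.63 ± 0.44 SE, adjusted p = 0.00122), a call lost without primed replicate 2 (adjusted p = 0.0603). TBX18, of the epicardium and sinus node, had 15 and 13 naïve and 5 and 5 primed counts (log2 fold change -1.77, adjusted p = 0.00268), a call lost with DESeq2 (adjusted p = 0.0683). Of its primed alignments, 4 of 5 in each library touched the antisense RNA TBX18-AS1, against 0 of 15 and 3 of 13 naïve ones. Over TBX18-202, which meets no other gene, the counts were 15 and 11 against 0 and 1 (log2 fold change -4.66, adjusted p = 6.71e-06), again chosen after the data were seen. PAX9, of the sclerotome and pharyngeal pouches, had no naïve count and 12 and 6 primed counts, at least 2.44-fold above 3 counts per library, and was called higher without the filter (adjusted p = 0.000261). TBX15, a factor of limb and skeletal mesoderm, had 1 and 0 against 4 and 9 counts (adjusted p = 0.0253 without the filter). The cardiac factors NKX2-5, TBX1 and TBX5 had at most 6 counts in a library, as had the limb factor TBX4, SOX18 of the endothelium, PAX1 and PAX2.

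**Figure D3:**
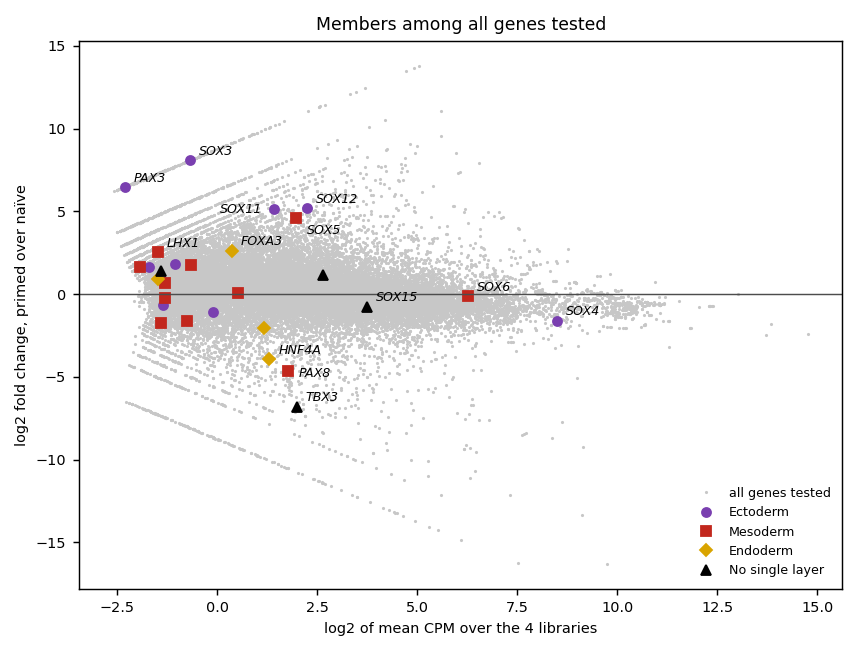
Log2 fold change of primed over naïve hESCs against the log2 of the mean CPM for the 27632 genes tested (grey) and the 28 members tested (coloured by layer). SOX3 and PAX3 lie on the upper line of genes with no naïve count, and TBX3, PAX8 and HNF4A lie among the genes that were lower in primed hESCs.

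Among the endoderm factors, HNF4A and GATA6 were higher in naïve hESCs. HNF4A, the nuclear receptor of liver and gut that is also made in the visceral endoderm, had 105 and 120 naïve counts and 7 and 11 primed counts. The states did not overlap, the naïve level was 15.5-fold higher (95% counting interval 9.56 to 26.6), and the log2 fold change was -3.93 ± 0.33 (SE, adjusted p = 6.07e-14). The span of HNF4A-202 begins beside the upstream stretch printed above. The span of HNF4A-207, which runs from 44355805 to 44407474 and passes the downstream start, held 81.9% (95% Wilson interval 73.5% to 88.1%) and 82.5% (74.7% to 88.3%) of the naïve alignments. At least 45 and 49 of the naïve alignments missed HNF4A-201, which starts at the downstream start, and so lay wholly in the 45539 bases before it. HNF4A-AS1, an antisense RNA that lies wholly in those 45539 bases, held 29 and 26 naïve and 2 and 3 primed alignments. As strand was ignored, part of the 45 and 49 naïve alignments may be reads of HNF4A-AS1. Outside HNF4A-AS1, 76 and 94 naïve against 5 and 8 primed alignments were left, a ratio of 16.2 with a counting interval of 9.21 to 31.

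GATA6, the zinc finger factor of primitive endoderm and of heart (chr18:22169589-22202528, plus strand), had 77 and 99 naïve counts and 16 and 37 primed counts. In CPM it was 3.61 ± 0.383 (SD, n = 2) against 0.874 ± 0.469 (SD, n = 2), a 4.12-fold difference that exceeded the spread of the replicates (log2 fold change -2.03 ± 0.30 SE, adjusted p = 1.32e-07). Without primed replicate 1 the log2 fold change was -1.41 and the call stayed. Of its alignments 94.8% and 93.9% in the naïve and 100% in the primed libraries touched GATA6-202, which takes 90.9% of the span. The span of GATA6 meets that of another gene. GATA4, its relative in the heart and the gut, went the other way in value, with 5 and 7 against 16 and 12 counts, and was not called (log2 difference 0.91, adjusted p = 0.111), although it was called higher with library size (adjusted p = 0.00826). GATA5 had at most 1 count. Of the hypoblast markers, the basement membrane genes COL4A1 and LAMA1 were lower in primed hESCs, calls that both lost with library size (adjusted p = 0.0585 and 0.449), whereas PDGFRA, APOA1, NID2 and BMP2 were higher. Their part in the differences of HNF4A and GATA6 was not tested.

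FOXA3 was the endoderm member called higher in primed hESCs. This forkhead factor of liver and gut (chr19:45864326-45873797, plus strand) had 13 and 4 naïve and 74 and 58 primed counts, 6.28-fold higher (95% counting interval 3.77 to 11.1), with a log2 fold change of 2.63 ± 0.40 (SE, adjusted p = 1.79e-07) and a span that meets no other gene. The naïve libraries differed among themselves, and the log2 fold change was 3.71 without naïve replicate 1 and 1.90 without naïve replicate 2. FOXA2, of the node, floor plate and definitive endoderm, had no naïve count and 3 and 7 primed counts and was called higher without the filter (adjusted p = 0.0164), and FOXA1 had 1 count in all. SOX17, the factor of definitive endoderm and of human germ cells, had 1 and 0 against 3 and 2 counts, and SOX7 had 3 to 6 in every library. PAX4, of pancreatic beta cells, had at most 2.

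Of the members of no single layer, TBX3 had the largest difference of all members that were higher in naïve hESCs. TBX3, a repressor of the T-box family known from the naïve pluripotency network of the mouse and from limb and heart (chr12:114670255-114684175, minus strand), had naïve counts of 158 and 228 and primed counts of 1 and 3. The naïve level was 119-fold higher (95% counting interval 46.3 to 440), with a log2 fold change of -6.80 ± 0.40 (SE, adjusted p = 3.96e-19). It was -6.11 without primed replicate 1 and -7.52 without primed replicate 2. The span of TBX3-203, inside the gene, which meets no other gene, held 72 and 133 naïve and 0 and 2 primed alignments, and the test over it gave a log2 fold change of -6.78. TBX3-AS1, which starts inside the 5′ end of TBX3 on the other strand and shares 1884 bases with it, was lower in primed hESCs too, with 141 and 199 against 11 and 12 counts. At least 17 and 29 naïve alignments on TBX3 missed it. The summed trophoblast markers moved the same way, with 2080 and 2409 CPM in naïve against 5.63 and 4.92 CPM in primed hESCs, and their part in the difference of TBX3 was not tested.

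SOX13, the third SoxD factor (chr1:204073115-204127743, plus strand), was higher in primed hESCs in all comparisons of a naïve with a primed library, with 94 and 98 against 224 and 297 counts. It was 3.95 ± 0.165 CPM (SD, n = 2) in naïve and 8.64 ± 1.47 CPM (SD, n = 2) in primed hESCs, a 2.18-fold difference (log2 fold change 1.13 ± 0.20 SE, adjusted p = 3.81e-06). The span of SOX13 meets that of another gene. Over a SOX13 transcript clear of other genes the log2 fold change was 1.51, an alternative added after the data were seen. The 5′ span SOX13-206 was touched by 27 and 31 naïve and 103 and 149 primed alignments, a 3.5-fold difference in CPM, and the other 67 and 67 naïve and 121 and 148 primed alignments differed 1.62-fold. SOX15, a SoxG factor of muscle progenitors and of placenta in the mouse, had 435 and 370 against 297 and 294 counts (log2 fold change -0.76 ± 0.17 SE, adjusted p = 0.000109), and with library size it was not called (-0.12, adjusted p = 0.533). Its span, chr17:7588178-7590094 on the minus strand, lies inside that of MPDU1 on the other strand. Of the alignments on SOX15-201, 158 and 134 naïve and 48 and 50 primed ones touched SOX15-203, a 3.71-fold difference in CPM, and the rest differed 1.3-fold. SOX30, a testis factor, had 2 and 8 against 18 and 15 counts (log2 fold change 1.40, adjusted p = 0.0184), a call lost with DESeq2 (adjusted p = 0.192) and without naïve replicate 1 (adjusted p = 0.251). TBX2 had 1 and 3 naïve counts and none in primed hESCs.

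**Figure D4:**
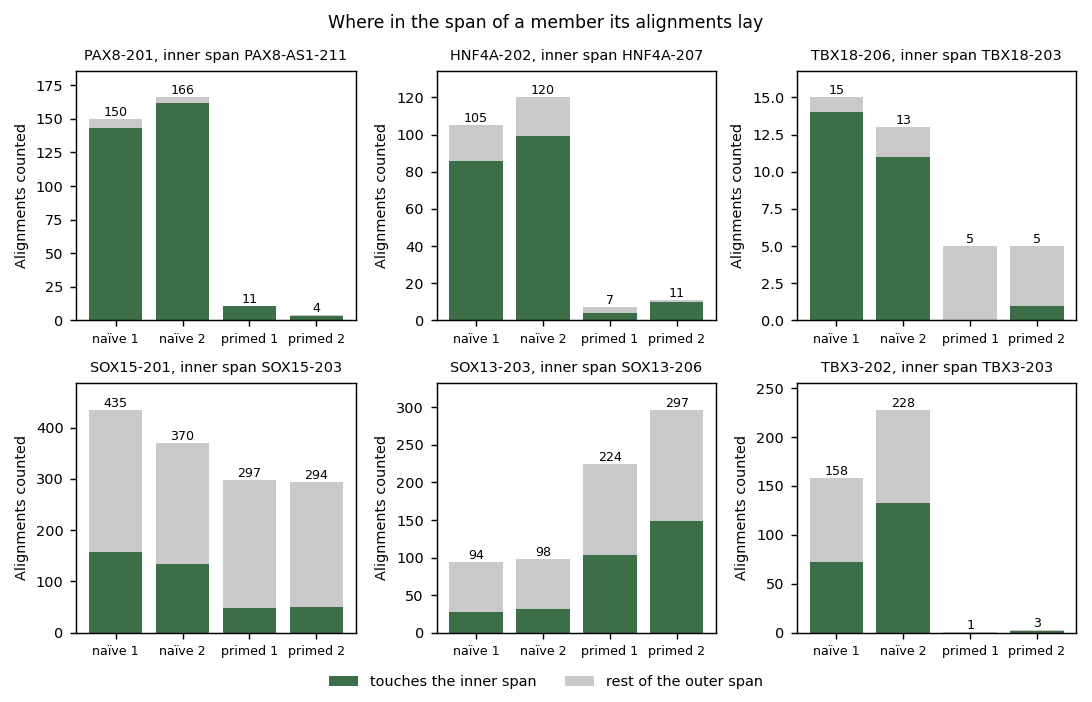
Number of alignments counted over the span of 6 members in each library (bar height, with the total above), split into those that touch the span of a transcript lying inside it (green) and those that do not (grey). For PAX8 the inner span is the antisense RNA PAX8-AS1 and takes nearly the whole bar, and for TBX18 the naïve bars are nearly all green and the primed bars nearly all grey.

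Isoform usage was also tested on the counts, as the change of each isoform against that of its gene (edgeR, diffSpliceDGE). The fraction of a gene that each isoform held, per exonic length, was not itself tested and served only as a further limit. An alignment was counted on every transcript whose span it overlaps, so isoforms of a gene share alignments. SOX15-201 and SOX15-202, for example, had the same counts in every library. The fractions are therefore not shares of reads assigned to an isoform, and the tests within a gene are not independent. Of the 124 isoforms of 21 members tested, 117 had a fraction in both states. Of these 117, 0 passed both limits, 0.05 for the adjusted p and 0.1 for the change in fraction. The PAX3 isoforms had no naïve count, so they had no change in fraction and could not be called. Among the 124, 6 had an unadjusted p under 0.05, and 0.566% of all isoforms tested were called. SOX15-203 passed on the p alone (adjusted p = 0.0408), with a fraction of 16.3% and 16.2% in naïve and 7.96% and 8.34% in primed hESCs. SOX13-206 was at 12.6% and 13.1% against 16.4% and 19.4% (adjusted p = 0.281). For TBX18-206 the change of 0.53 was large, but it rested on 5 primed counts in each library (adjusted p = 0.236).

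Of the 12 antisense, divergent or overlapping RNAs named after a member, 7 had enough counts for a test. Besides LHX1-DT, SOX21-AS1 (6 and 5 against 63 and 72 counts, log2 fold change 3.28) and SOX5-AS1 (0 and 0 against 12 and 11 counts) were higher in primed hESCs. SOX5-AS1 lies wholly inside the span of SOX5-218 and takes 3.57% of it. As strand was ignored, its alignments are counted on SOX5 too and cannot be told from reads of SOX5. SOX21-AS1 was counted in primed hESCs although SOX21 itself had at most 7 counts. PAX8-AS1, HNF4A-AS1 and TBX3-AS1 were lower in primed hESCs, with log2 fold changes of -4.72, -3.70 and -4.17, and each shares alignments with its member. SOX9-AS1, which encloses SOX9, was not called (32 and 43 against 44 and 82 counts, adjusted p = 0.188), but it was called higher in primed hESCs with library size (adjusted p = 0.00387), with the sum over transcripts (adjusted p = 0.00619) and without primed replicate 1 (adjusted p = 0.0186).

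The other lineage factors of a list of 44 genes were measured beside the members. Of these, 27 had too few counts for a test. Of the 17 tested, 8 were higher and 9 lower in primed hESCs, beside 37.4% and 32.6% of all genes tested. Of the former, 6 reached the filter through the primed libraries alone, and of the latter, 8 through the naïve libraries alone, so that these had to differ to be tested. Among the 19 ectoderm factors 3 were higher and 2 lower, among the 16 mesoderm factors 1 was higher and 5 lower, and among the 9 endoderm factors 4 were higher and 2 lower. DLX5, a homeobox factor of the non-neural ectoderm border, had 56 and 73 naïve counts and none in the primed libraries, at least 26.5-fold higher in naïve hESCs (adjusted p = 5.31e-14). Higher in primed hESCs were ONECUT1, a liver and pancreas factor (2 and 2 against 115 and 86 counts, log2 fold change 5.27), and MEF2C, of heart and neurons (1 and 2 against 80 and 83 counts, log2 fold change 5.36). FOXD3 had 33 and 26 against 51 and 65 counts (log2 fold change 0.66, adjusted p = 0.0498), a call lost with DESeq2 (adjusted p = 0.244), without a filter (adjusted p = 0.0617), with the sum over transcripts (adjusted p = 0.149) and without naïve replicate 2 (adjusted p = 0.38) or primed replicate 2 (adjusted p = 0.136).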

How the data were processed

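Complementary DNA of H1 hESCs, 2 naïve and 2 primed libraries, was sequenced with Nanopore. Per the labels, file headers and the study's methods, the authors aligned the reads to GRCh38 with minimap2 and deposited raw counts, made with featureCounts 2.0.0 on the Ensembl annotation. The recorded options count each transcript over its whole span, ignore strand, and count an alignment once per overlapping transcript and once per aligned position. No normalization was applied.

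Identifiers were looked up in GENCODE release 44 (242542 of 244825 matched, 97.9% with the same span), and the unmatched 2283, with 1% of the counts, were left out. Each gene took the value of its transcript with the largest mean count. A minimum of 10 counts in 2 or more libraries was set, and the test was that of edgeR 4.0.16 in R 4.3.3 (quasi-likelihood, TMM, two-sided, Benjamini-Hochberg over all genes, adjusted p under 0.05). TMM factors were 0.779, 0.824, 1.25 and 1.24. Isoform usage was tested with diffSpliceDGE. Where a transcript lies inside another, the difference of their counts is the number of alignments that miss the inner one. Where a state had 20 counts or fewer, the ratio has an exact counting interval, and where it had none, a bound at 3 counts per library. Shares have 95% Wilson intervals. Replicates were distinct libraries (chi-square per degree of freedom 13.2 in naïve and 7.82 in primed). The fits were tested on simulated data. Promoters are from RefSeq, GRCh38.p14.

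The members and gene lists were chosen with earlier results of these data known. All members are accounted for, those with a mean count of at least 50 in a state in full, and companion genes that reach the same minimum are named, with up to 4 other lineage factors per direction at a mean count of at least 50 in a state, of which 1 is not reported here. Alternatives were library size, DESeq2 1.42.0, the replicate number as a block, no filter or at least 50 counts, the canonical transcript, the sum over transcripts, a log2 threshold of 1, members free of other genes, each library left out, and for isoforms no length and identical isoforms collapsed. Transcripts clear of other genes were added after the data were seen. Python 3.11.15 with pandas 2.3.3 and scipy 1.17.1 made the tables.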

Additional observations from a re-analysis of the deposited data

How the results depend on the processing

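Of 393 comparisons of a named gene with an alternative, 363 kept direction and call, 19 lost the call, 5 gained one and 6 turned direction, and the causes were not tested unless given. A gene that was not tested under an alternative is not among the 393. Of 40 named genes, 35 were compared on the canonical transcript and 20 with at least 50 counts. On the canonical transcript 10 members were higher, beside 37.6% of all genes tested, and LHX1, MESP2 and PAX6 were not compared. The counted transcripts of LHX1 and MESP2 (LHX1-203 and MESP2-202) have no defined coding sequence. With library size, EOMES turned to 0.39 and SOX6 to 0.52. Left-out libraries moved EOMES between -0.44 and 0.08, turning it without primed replicate 2, as they did SOX6 (0.13), and SOX9 between -0.20 and 0.55, turning it without primed replicate 2 or naïve replicate 1 (-0.09). The number of members higher in primed hESCs, 13, fell to 5 with at least 50 counts, beside 37.9% of all genes tested. It fell to 6 when members that meet another gene were left out. In both settings fewer members were tested. A left-out library leaves 1 library in a state, so no number of called members is given for these fits. Without a primed replicate, members counted in primed hESCs alone failed the filter. The number lower, 9, became 2 for members that meet no other gene, and no share over all genes was computed for that setting. The 2 are TBX19 and TBX20, whose calls are each lost under an alternative given above. SOX4, TBX18, PAX8, GATA6, HNF4A, SOX15 and TBX3 each meet another gene. On transcripts clear of other genes, 9 members were higher and 4 lower, beside 36.9% and 32.1% of all genes tested in that fit. Members without such a transcript were left out of these counts, whereas the shares still hold genes without one, so the sets are unlike. With the replicate number as a block, 13 were higher and 9 lower, beside 37.9% and 33.4% of all genes tested, and no call of a named gene changed. The numbers do not show a pairing (correlation of replicate deviations 0.04 over 27632 genes). Isoform usage gave 0 called member isoforms under each alternative, with the replicate block too. Depth limits the 24 untested members, none above 12 counts in a library.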
